A study of Rattus norvegicus with 26 samples.

Results

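A window of rat chromosome 16, between positions 75300000 and 75700000, was followed across hepatocytes and liver tissue. The window is labelled a defensin window. Of the 32552 features in the count files, 18 lie wholly inside it and have at least 1 count. The genes described here were chosen by their raw counts summed over the 16 libraries made before transplantation, with at most 10 places. Only 7 of the 18 had any such count, and the other 11 were tied at 0 and could not be ranked for the places left, so the window has 7 members. The values that chose them are the pre-transplant counts, so levels in those libraries are given as a description and carry no test.

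Alpha-defensins are short, cysteine-rich, positively charged peptides that damage the membranes of microbes. In rats they are stored in the primary granules of neutrophils and are made while those cells mature, mostly in the marrow, and related peptides come from Paneth cells of the small intestine. The fetal liver is a site of blood formation, where maturing blood cells lie among hepatocytes. The files give identifiers without gene names, and the RefSeq table for the GRCr8 assembly paired 0 of the identifiers with a symbol. That table lists 14 alpha-defensin symbols, all on chromosome 16, of which 9 are protein coding, 3 are pseudogenes and 2 are other RNA. No member could be matched to one of them, so the label could not be checked, no sequence is printed, and the genes keep their identifiers. For the same reason no list of blood, neutrophil, biliary or hepatocyte marker genes could be read, and the labelled cell type was not checked against markers.

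RNA was sequenced from 26 rat libraries in 6 groups. Before transplantation there were 4 libraries of adult hepatocytes and 12 of immunopurified fetal hepatocytes, 4 for each of the sorts that the labels call LAP+, LAP+/OC2+ and LAP+/OC2-. After transplantation, tissue was laser-captured from colonies grown from fetal cells (colony) and from the adult liver around them (host), with 5 libraries each under the same 5 replicate numbers, read here as 5 animals. The labels used here do not spell out LAP or OC2 and give no strain, sex, age or transplantation interval. They call the pre-transplant libraries biological replicates without saying which came from separate animals or litters. Library totals ranged from 7871347 to 16874438 counts. Cells and captured tissue were prepared with different kits, so no level is compared between the stages.

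Several libraries stood apart before any comparison. Mitochondrial features took 38.9 to 78.6% of the counts in the LAP+/OC2+ libraries and 4.11 to 10.3% in the other pre-transplant libraries. LAP+ library 4 differed from the other LAP+ libraries in a small set of genes. Of 6824 nuclear features with at least 10 CPM (counts per 1000000 counts of a library, on TMM-scaled library sizes) in that library, 38 (0.557%) stood at least 10 times above the highest of the other LAP+ libraries, and 4 of those 38 are members of the window. The same count, each library against the others of its group, was 0 for LAP+ libraries 1, 2 and 3 and for each LAP+/OC2- library, 17 for adult library 2, 2 for LAP+/OC2+ library 2 and 1 for adult library 1, with no member among them. In all 38, each LAP+/OC2+ library also lay above the other LAP+ libraries. The mitochondrial share of LAP+ library 4 was 4.69%, within the range of the other LAP+ libraries.

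The members fall into 2 classes by position and strand. The 5 with the most counts lie on the minus strand: ENSRNOG00000030093 (75338052 to 75340360, 489 nt of exon), ENSRNOG00000028707 (75414786 to 75481115, 790 nt), ENSRNOG00000038135 (75497832 to 75530517, 645 nt), ENSRNOG00000061751 (75498236 to 75499012, 273 nt) and ENSRNOG00000038133 (75517505 to 75518336, 315 nt). Positions are as deposited, and no label used here names the genome build. The other 2 members lie on the plus strand, ENSRNOG00000038130 (75554852 to 75558945) and ENSRNOG00000038129 (75572070 to 75574546). Of the 11 window genes without a pre-transplant count, 6 lie on the minus strand and 5 on the plus strand. Strand thus does not separate the highly counted genes from the rest of the window. ENSRNOG00000061751 and ENSRNOG00000038133 both lie within the span of ENSRNOG00000038135. ENSRNOG00000038133 and ENSRNOG00000038135 share 18 nt of exon on the same strand, from 75517505 to 75517522. Defensin genes are often close copies of each other, and the labels used here do not say how reads matching several genes were counted, so the split of reads among members is uncertain.

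At the edge of the choice, ENSRNOG00000038129 entered with 1 count summed over the 16 libraries and ENSRNOG00000038130 with 5. Both had counts before transplantation only in LAP+/OC2+ libraries. ENSRNOG00000013768 (75294376 to 75309176), which spans the window's first limit and so was not taken, and ENSRNOG00000033538, the first gene beyond the other limit (from 75702347), had 0 pre-transplant counts. The gene after that, ENSRNOG00000028636 (from 75744786), had 583, at most 71 in a library. Genes without a pre-transplant count lay both between the members and beyond the last of them, and ENSRNOG00000046075 and ENSRNOG00000046453 lay inside the span of ENSRNOG00000028707 on the other strand.

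**Figure D1:**
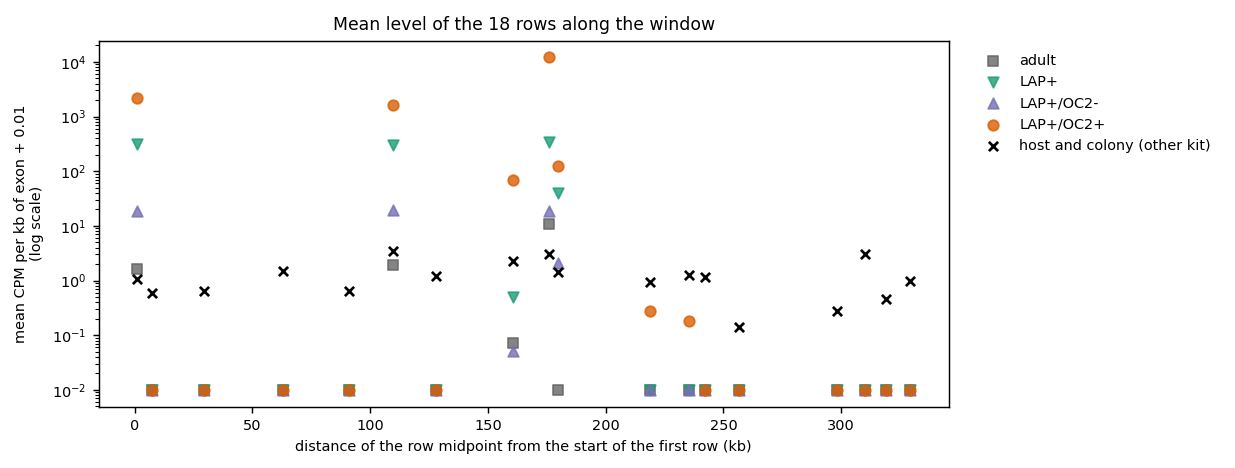
Mean level of each of the 18 window genes against its distance in kb from the start of the first gene, as CPM per kb of exon plus 0.01 on a log axis, with 1 symbol per pre-transplant group and a cross for the 10 post-transplant libraries, which were made with another kit. The 5 minus-strand members stand above the rest in LAP+/OC2+ cells, and 11 genes sit at 0 in every pre-transplant group.

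In LAP+/OC2+ cells a member of the window was among the most abundant nuclear features. The 7 members together took 1.27 to 2.86% of nuclear counts in the LAP+/OC2+ libraries. ENSRNOG00000038135 alone ranked 3 to 5 by raw count among all nuclear features in those libraries, 71 in LAP+ library 4, 2659 to 3968 in the other LAP+ libraries, 3023 to 9144 in LAP+/OC2- and 6868 to 9059 in adult libraries. Per kb of exon, the mean level in LAP+/OC2+ cells was 12094 CPM per kb for ENSRNOG00000038135, 2159 for ENSRNOG00000030093, 1649 for ENSRNOG00000028707, 124 for ENSRNOG00000038133 and 70.1 for ENSRNOG00000061751. These are levels of bulk RNA, in which more cells of a type and more RNA per cell cannot be told apart.

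ENSRNOG00000038135 had 21135, 54125, 46067 and 46851 counts in LAP+/OC2+ libraries 1 to 4, which is 5452, 12847, 7513 and 5389 CPM. LAP+ libraries 1 to 4 had 669, 769, 435 and 15726 counts, or 34.3, 33.9, 23.0 and 788 CPM. The LAP+/OC2- libraries 1, 3, 4 and 5 had 98, 96, 144 and 618 counts, or 4.60, 4.42, 8.10 and 30.5 CPM. Every LAP+/OC2+ library was above every other pre-transplant library, and LAP+ library 4 came next. Adult libraries 1 to 4 were not silent, with 53, 143, 118 and 99 counts, or 3.97, 9.36, 7.78 and 6.69 CPM. The adult and LAP+/OC2- libraries overlapped, at 6.95 ± 2.27 and 11.9 ± 12.5 CPM (SD, n = 4 each).

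ENSRNOG00000028707 stood at 1247, 1553, 1378 and 1032 CPM in LAP+/OC2+ libraries 1 to 4. In LAP+ libraries 1 to 4 it stood at 12.5, 13.4, 12.5 and 913 CPM. The LAP+/OC2- libraries 1, 3, 4 and 5 gave 5.25, 6.36, 10.96 and 40.1 CPM, and the adult libraries 0.825 to 2.31 CPM. Every fetal library was above every adult library for this gene, a separation for which no share over all features was taken. Within LAP+ and LAP+/OC2- cells 1 library of each carried most of the counts.

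ENSRNOG00000030093 gave the same order of groups. It had 3562, 5800, 6263 and 7882 counts in LAP+/OC2+ libraries 1 to 4, or 1056 ± 220 CPM (SD, n = 4). LAP+ libraries 1, 2 and 3 had 145, 178 and 151 counts, at 7.43 to 7.999 CPM, while library 4 had 11773 counts, at 590 CPM. The LAP+/OC2- libraries had 70, 46, 129 and 488 counts. Adult libraries had 3, 13, 8 and 23 counts, at 0.790 ± 0.571 CPM (SD, n = 4), below every fetal library. No share over all features was taken for this separation either.

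ENSRNOG00000038133 had 146, 173, 247 and 320 counts in LAP+/OC2+ libraries 1 to 4, at 37.7, 41.1, 40.3 and 36.8 CPM. On library totals without TMM scaling the same libraries spread from 16.3 to 38.7 CPM. LAP+ library 4, with 963 counts, stood above all of them at 48.2 CPM, and at 63.6 CPM on library totals. On nuclear counts alone it stood at 66.8 CPM, within the 63.4 to 76.1 CPM of the LAP+/OC2+ libraries. How LAP+ library 4 compared with LAP+/OC2+ cells thus depended on the scale, and this held for other members too. For ENSRNOG00000028707 it was below every LAP+/OC2+ library on TMM and nuclear scales, and above all of them on library totals (1204 CPM against 539 to 1086 CPM). For ENSRNOG00000030093 it was also below them on the first 2 scales and within their range on library totals (778 CPM against 397 to 954 CPM). LAP+ libraries 1, 2 and 3 had 9, 15 and 10 counts, and the LAP+/OC2- libraries 1, 3, 4 and 5 had 4, 9, 8 and 32. Adult libraries had 0 counts each, so the difference from adult is a lower bound. On library totals, the LAP+/OC2+ mean of 26.5 CPM was at least 136-fold higher, taking the adult level as 3 counts in each library.

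ENSRNOG00000061751 was counted almost wholly in LAP+/OC2+ cells. It had 115, 117, 66 and 73 counts in LAP+/OC2+ libraries 1 to 4, with a mean of 19.1 ± 11.1 CPM (SD, n = 4). LAP+ libraries had 0, 2, 1 and 8 counts, LAP+/OC2- libraries 0, 1, 0 and 0, and adult libraries 0, 0, 0 and 1. LAP+ library 4 stood at 0.401 CPM for this gene, below every LAP+/OC2+ library on all 3 scales.

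**Figure D2:**
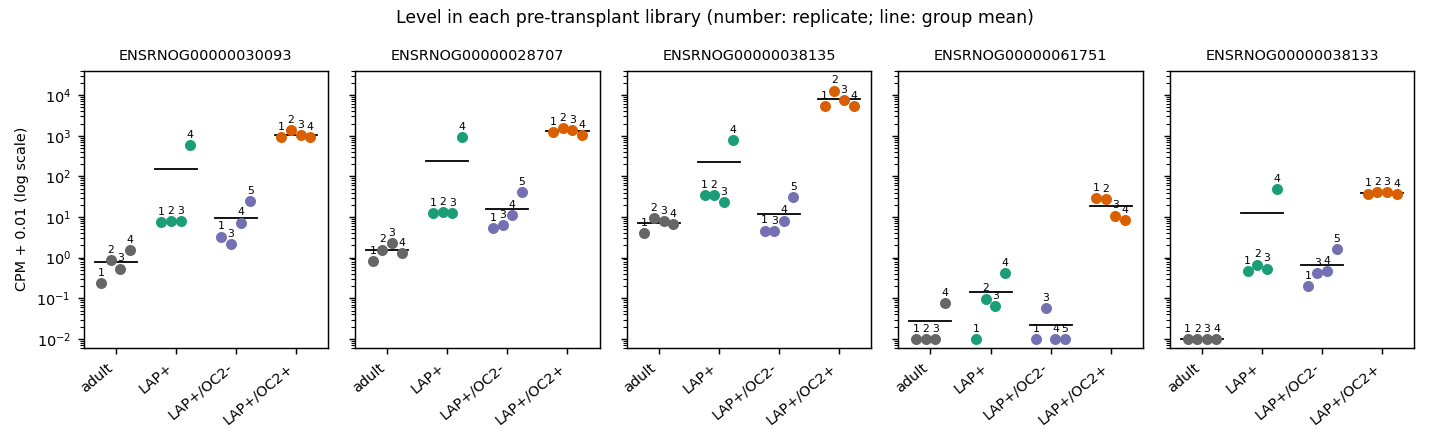
Level of the 5 members with the most counts in each pre-transplant library, as CPM plus 0.01 on a log axis, with the replicate number beside each point and a line at the group mean. On this TMM scale the LAP+/OC2+ libraries are highest for 4 of the 5 genes, and LAP+ library 4 and LAP+/OC2- library 5 lie above the other libraries of their sorts for ENSRNOG00000030093, ENSRNOG00000028707, ENSRNOG00000038135 and ENSRNOG00000038133.

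In LAP+ and LAP+/OC2- cells the means leaned on the highest library of the sort. For ENSRNOG00000028707, LAP+ library 4 was 68.1 times the highest other LAP+ library. The ratio was 73.7 for ENSRNOG00000030093, 72.9 for ENSRNOG00000038133 and 23.0 for ENSRNOG00000038135. The LAP+ mean was 238 ± 450 CPM (SD, n = 4) with library 4 and 12.8 ± 0.538 CPM (SD, n = 3) without it for ENSRNOG00000028707. For ENSRNOG00000038135 it was 220 ± 379 CPM (SD, n = 4) with it and 30.4 ± 6.39 CPM (SD, n = 3) without it. LAP+/OC2- library 5 was 3.32 to 3.77 times the highest other library of its sort for these 4 genes, short of the factor of 10 used above.

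Log2 differences were then fitted over all features. Of the 7 members, 5 passed the low-count filter before transplantation, and each of the 5 was at least 2-fold higher in LAP+/OC2+ than in LAP+/OC2- cells, from 5.87 for ENSRNOG00000038133 to 9.85 for ENSRNOG00000061751 on the log2 scale. Without LAP+/OC2- library 5 the difference was 6.76 in place of 5.87 for ENSRNOG00000038133, 7.96 in place of 6.84 for ENSRNOG00000030093, 7.42 in place of 6.38 for ENSRNOG00000028707 and 10.40 in place of 9.35 for ENSRNOG00000038135. That of ENSRNOG00000061751 rests on 1 LAP+/OC2- count, in library 3, and was 11.11 without that library. Of all 13818 features tested, 22.9% were at least 2-fold higher in that comparison, and every LAP+/OC2+ library lay above every LAP+/OC2- library for 26.4% of them, as it did for these 5 members. Those 5 passed the filter through the libraries in which they were high, so nothing is read from the count. Against adult cells, 5 of the 5 were past 2-fold in LAP+/OC2+ cells (33.0% of all features), 5 in LAP+ cells (23.6%) and 3 in LAP+/OC2- cells (22.6%). The median over the 5 was 6.84 between the OC2 sorts, where the median over all features was -0.18. The same choice and filter bear on that median, so nothing is read from it either.

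The comparison of LAP+ with adult cells rested on LAP+ library 4 in size, and not in sign. For ENSRNOG00000028707 the fitted log2 difference was 7.30 with it and 3.08 without it. For ENSRNOG00000030093 it was 7.57 and 3.27, and for ENSRNOG00000038135 it was 4.98 and 2.13. Between LAP+/OC2- and adult cells the fitted difference of ENSRNOG00000038135 was 0.77 (SE 1.01) and turned to -0.29 without LAP+/OC2- library 5. Mitochondrial share was also higher in every LAP+/OC2+ library than in any other pre-transplant library, and its part in the LAP+/OC2+ levels was not tested. Scaled to nuclear counts alone, the LAP+/OC2+ mean of ENSRNOG00000038135 was 14333 ± 6209 CPM in place of 7800.5 ± 3505.9 CPM (SD, n = 4 each), and that of ENSRNOG00000038133 was 72.0 ± 5.76 CPM in place of 39.0 ± 2.04 CPM. On library totals the means were lower, at 4995 CPM for ENSRNOG00000038135, 859 CPM in place of 1303 CPM for ENSRNOG00000028707, 700.1 CPM in place of 1056 CPM for ENSRNOG00000030093 and 26.5 CPM for ENSRNOG00000038133.

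The make-up of the window counts differed between the sorts, which no scaling of libraries can change because each share is taken within a library. ENSRNOG00000038135 supplied 70.9 to 81.1% of the members' counts in LAP+/OC2+ libraries. Its share was 30.3 to 34.5% in the LAP+/OC2- libraries, and those ranges did not overlap. Adult libraries lay near LAP+/OC2+ cells, at 69.7 to 79.4%, although their summed counts were only 67 to 180 per library. LAP+ libraries 1, 2 and 3 lay between, at 62.8, 60.6 and 52.2%. LAP+ library 4 stood at 33.7% (95% exact binomial interval 33.2 to 34.1%, counting error only), inside the LAP+/OC2- range. The LAP+ library with the highest window counts thus had a share of ENSRNOG00000038135 in the LAP+/OC2- range and below every LAP+/OC2+ library.

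Counts of the other members relative to ENSRNOG00000028707 in the same library were compared next. ENSRNOG00000030093 had 0.586 to 0.646 counts per count of ENSRNOG00000028707 in LAP+ libraries, library 4 included, and 0.737 to 0.886 in LAP+/OC2+ libraries. Its ratio spread more widely in LAP+/OC2- libraries, from 0.333 to 0.662. In adult libraries it ran from 0.229 to 1.21, on 3 to 23 counts of ENSRNOG00000030093. For ENSRNOG00000038133 the ratio was 0.0370 to 0.0528 in LAP+, 0.0357 to 0.0652 in LAP+/OC2- and 0.0264 to 0.0357 in LAP+/OC2+ libraries. These ratios moved by less than 3-fold over all fetal libraries. ENSRNOG00000038135 ranged from 0.696 counts per count in LAP+/OC2- library 3 to 8.27 in LAP+/OC2+ library 2. ENSRNOG00000061751 had 0.00781 to 0.0238 in LAP+/OC2+ libraries and 0.000439, on 8 counts, in LAP+ library 4. Elsewhere it rested on 0 to 2 counts, with ratios of 0.00658 and 0.00424 in LAP+ libraries 2 and 3 and 0.00725 in LAP+/OC2- library 3, so its ratio cannot be followed there. These patterns were seen in the data first and carry no test.

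**Figure D3:**
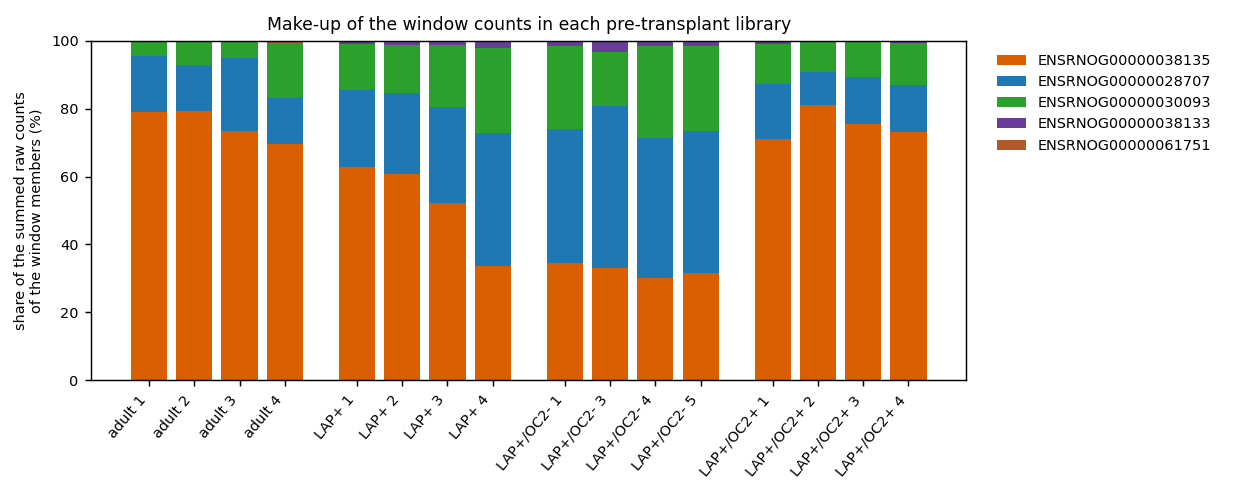
Share of the members' summed raw counts taken by each of the 5 leading members, in percent, as 1 stacked bar per pre-transplant library. ENSRNOG00000038135 takes 69.7 to 81.1% in adult and LAP+/OC2+ libraries and 30.3 to 34.5% in LAP+/OC2- libraries and LAP+ library 4.

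Other genes shared the pattern of ENSRNOG00000038133. Over the 16 pre-transplant libraries, 105 of the 13818 features tested had a Pearson r of at least 0.95 with it on log2(CPM + 1), and 6 had at least 0.99. These libraries share their group differences and LAP+ library 4, so the coefficients are descriptions. The most alike genes outside the window were ENSRNOG00000032728 (chromosome 11, 67329657 to 67337948, r = 0.995) and ENSRNOG00000050110 (chromosome 11, 67465236 to 67470941, r = 0.994). ENSRNOG00000032728 stood at 75.6 CPM in LAP+ library 4 and at 0.848 to 0.974 CPM in the other LAP+ libraries. Its LAP+/OC2+ mean was 111 ± 12.5 CPM (SD, n = 4). Without LAP+ library 4 its r was 0.997. Within the window, r was 0.983 for ENSRNOG00000030093, 0.982 for ENSRNOG00000028707, 0.966 for ENSRNOG00000038135 and 0.845 for ENSRNOG00000061751. Spearman's rho was 0.957, 0.963, 0.873 and 0.739 for those members in turn, against 0.919 for ENSRNOG00000032728 and 0.942 for ENSRNOG00000050110. With a pseudocount of 0.1 CPM, r was 0.988, 0.996, 0.949 and 0.862 for the members, against 0.989 and 0.991. Which genes were most alike thus depended on the measure.

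Colony and host tissue, whose counts the ranking of members did not use, gave no called member of the window. The question there is whether a fetal difference is still seen after engraftment. With the animal as a block, 6 of the 7 members passed the low-count filter and 0 were called (threshold 0.05 on the Benjamini-Hochberg adjusted p of edgeR's quasi-likelihood test), where 1.17% of the 22303 features tested were called. At so low a share, 0 calls is the usual outcome for any 6 features. The absence of a call therefore does not answer that question for the members. At an unadjusted p under 0.05 there was 1 of the 6, against 19.0% of all features. DESeq2 gave an adjusted p to 2 members and called 0, and limma-voom called 0 of 6. Counts were low throughout, from 0 to 67 per member and library.

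ENSRNOG00000038135 had 58, 23, 26, 34 and 37 counts in the colonies of animals 242, 243, 246, 248 and 249, and 11, 11, 11, 20 and 12 in their hosts. That is 2.68 ± 1.02 CPM in colonies and 1.20 ± 0.456 CPM in hosts (SD, n = 5 each). Its CPM was higher in the colony in 5 of 5 animals, as for 9.11% of all features tested, though the groups overlapped. The log2 difference was 1.14 (SE 0.53, edgeR adjusted p = 0.24), and over the alternatives the adjusted p ran from 0.13 to 0.56. ENSRNOG00000028707 had 50, 41, 47, 14 and 67 counts in colonies and 18, 11, 52, 36 and 15 in hosts. It was higher in the colony in 3 of 5 animals, with a log2 difference of 0.52 (SE 0.48, edgeR adjusted p = 0.56).

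Most remaining members had larger errors. ENSRNOG00000038130 had 19, 13, 7, 12 and 9 counts in colonies and 2, 2, 7, 0 and 2 in hosts, with a log2 difference of 2.13 (SE 1.14, edgeR adjusted p = 0.30). That difference was 2.82 without animal 246 and 1.53 without animal 248, and was called in neither. ENSRNOG00000030093, ENSRNOG00000061751 and ENSRNOG00000038129 had log2 differences of 0.93, 0.45 and 0.62, each with an SE over 1. ENSRNOG00000038133 did not pass the filter, with 1, 1, 4, 2 and 11 counts in colonies and 3, 4, 6, 19 and 1 in hosts, and was higher in the colony in 1 of 5 animals.

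The members' differences stood near those of other weakly counted features. The median over the 6 tested members was 0.78. Among the 8154 features tested whose mean level lay in the same range (0.475 to 2.76 CPM), the median was 0.73 and 83.8% were positive, while the median over all 22303 features was 0.11. The 11 window genes with no pre-transplant count had 448 counts in all in captured tissue. Another kit was used there, so this is not compared with the pre-transplant stage. Their summed level was 4.48 ± 1.51 CPM in colonies and 2.44 ± 0.689 CPM in hosts (SD, n = 5 each), and it was higher in the colony in 4 of 5 animals. Per kb of exon, the members' mean levels over the 10 libraries ran from 0.930 to 3.50 CPM per kb, and those of the 11 genes from 0.134 to 3.01 CPM per kb, and the ranges overlapped.

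**Figure D4:**
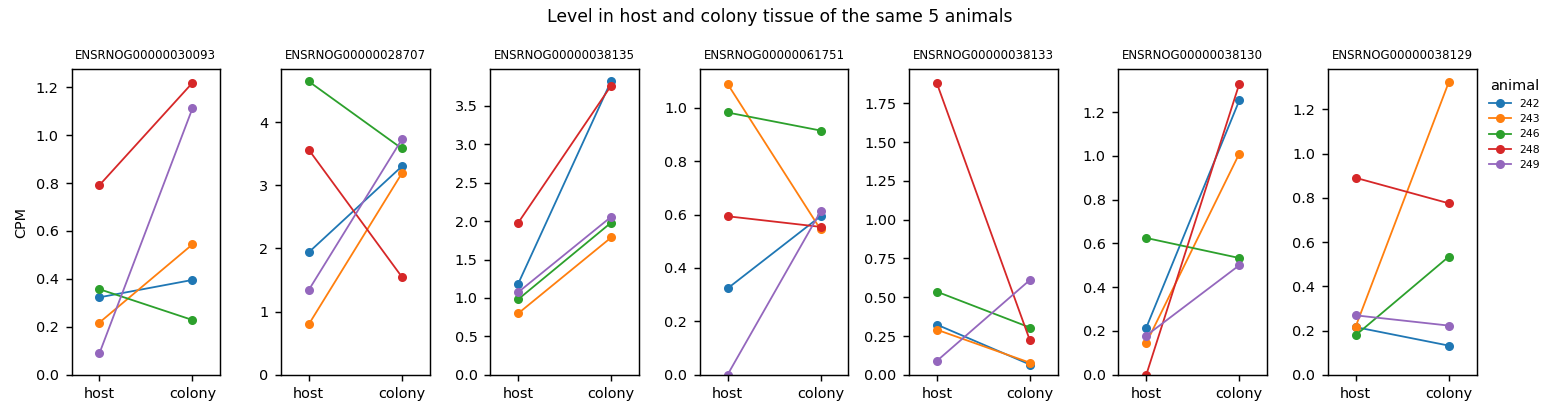
Level of each of the 7 members in host and colony tissue in CPM, with 1 line per animal and its own axis from 0 for each gene. All 5 lines end higher in the colony for ENSRNOG00000038135, from 0.799 to 1.98 CPM in hosts to 1.79 to 3.83 CPM in colonies, and the lines of the other members cross or run in both directions, with no member called.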

How the data were processed

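Each file holds the deposited counts of 1 library, unnormalized, beside exon positions and length, per the file headers. The submitters' processing notes name STAR 2.5.2b, Subread 1.5.2 with featureCounts, Trimmomatic 0.36 and bcl2fastq 2.17. Not given in the sources used here are genome build, annotation, strand setting and the treatment of reads matching several features. Per the labels' protocols, cell RNA went into the NEBNext Ultra kit and captured tissue into the SMARTer Pico stranded total RNA kit.

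Groups came from sample titles. Counts were fitted on the whole table with edgeR 4.0.16 under R 4.3.3 (filterByExpr, TMM, robust quasi-likelihood test) and Benjamini-Hochberg adjustment at 0.05. The 16 pre-transplant libraries entered 1 fit of 4 groups with no block. The 10 post-transplant libraries entered a fit with the animal as a block, since the labels give colony and host the same numbers. Deviations of same-numbered libraries correlated from -0.207 to 0.289 there. DESeq2 1.42.0 and limma 3.58.1 were alternatives, and intervals used scipy 1.17.1. The fit was tested on simulated data, where it recovered 87% of 2-fold and 100% of 8-fold changes between colony and host. Those changes were placed only in features with a higher mean level than any member had in captured tissue. The simulation therefore does not show what the fit can find for the members there. A count of 0 allows up to 3 counts, or 0.178 to 0.381 CPM depending on the library, for counting error only. P-values are given for colony against host only. With the animal as a block they measure how the colony and host difference spreads over these animals, with the spread moderated across features.

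The members, lists and comparisons were chosen with earlier results of these data known. Every member is named, and outside the window the 2 features most alike ENSRNOG00000038133. The marker and defensin lists by symbol could not be used, as 0 of 32552 identifiers paired with a symbol.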

Additional observations from a re-analysis of the deposited data

Results flagged for a closer look

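Within each group of 4 or 5 libraries, the gap between an extreme library and its nearest neighbour was set against the group's whole range. Of 31 such groups of member levels, 10 held a library beyond the 95% critical value. Pre-transplant levels chose the members, and members share libraries, so this count is a description and is set against no chance rate. LAP+ library 4 was the high one for ENSRNOG00000030093 (590 CPM), ENSRNOG00000028707 (913 CPM), ENSRNOG00000038135 (788 CPM) and ENSRNOG00000038133 (48.2 CPM). LAP+/OC2- library 5 was high for ENSRNOG00000028707 (40.1 CPM) and ENSRNOG00000038135 (30.5 CPM). After transplantation the host of animal 248 was high for ENSRNOG00000038133 (1.88 CPM) and ENSRNOG00000038129 (0.890 CPM). The colony of animal 248 was low for ENSRNOG00000028707 (1.55 CPM), and the colony of animal 246 was high for ENSRNOG00000061751 (0.914 CPM).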

How the results depend on the processing

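No member was called between colony and host in any of the 12 alternatives run, among them no replicate block (0 called, 2 of 6 at an unadjusted p under 0.05) and each animal left out. The stricter low-count filter left 2 members to test, and leaving out 1 animal left 4 to 6. Several settings called few features of any kind, so the lack of a called member says little there. Over all features, edgeR called 262, against 751 with no low-count filter, 6 with a stricter one, 0 with no replicate block, 682 with DESeq2 and 1030 with limma-voom. Leaving out 1 animal gave 0 (without 249) to 2683 (without 246) calls. Without animal 249, ENSRNOG00000061751 turned from 0.45 to -0.11, and it ranged up to 0.89 without 1 animal. Before transplantation, with the replicate number as a block (replicate block), the counts of members past 2-fold stayed at 5, 5, 5 and 3, and between the OC2 sorts ENSRNOG00000038133 stood at 7.93 in place of 5.87, ENSRNOG00000030093 at 8.64 in place of 6.84, ENSRNOG00000028707 at 7.97 in place of 6.38 and ENSRNOG00000038135 at 10.57 in place of 9.35. Same-numbered libraries there correlated from -0.428 to 0.198. Such values cannot settle whether a shared number means a shared animal or litter, as colony and host of the same number also correlated weakly (-0.207 to 0.289). Against adult cells in LAP+/OC2- cells, ENSRNOG00000038135 turned to -0.36 with that block and ranged from -0.29 to 1.05 with 1 library left out. ENSRNOG00000061751, with 1 count in each group, turned to 0.11 with the block and ranged from -1.59 to 1.32. Without a low-count filter 7 members passed 2-fold in both LAP+/OC2+ comparisons. The added ones, ENSRNOG00000038130 and ENSRNOG00000038129, had only 5 and 1 pre-transplant counts, all in LAP+/OC2+ libraries. Passing 2-fold was thus set by those few counts, no share over all features was taken in that setting, and nothing is read from it. The likeness of ENSRNOG00000032728 was 0.92 as Spearman's rho, 0.99 with a pseudocount of 0.1 CPM and 0.997 without LAP+ library 4, an alternative chosen after seeing the data, and other genes were then most alike. Low counts after transplantation limit what can be seen.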
